A study of Arabidopsis thaliana with 12 samples.

Results

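Oil body protein transcripts were examined in developing seeds and in the fruit tissue around them, in the Arabidopsis thaliana mutant lhp1-6 and in wild-type Col-0. The genes were taken by locus identifier as 10 of the 26925 genes listed in every library, and all 10 passed the filter on low values. They were the seed oleosins OLEO1 (AT4G25140), OLEO2 (AT5G40420), OLEO3 (AT5G51210), OLEO4 (AT3G27660) and AT3G01570, the caleosins CLO1 (AT4G26740, also named ATS1) and CLO2 (AT5G55240, also named ATPXG2), OBAP1 (AT1G05510), and the steroleosin HSD1 in its copies AT5G50600 and AT5G50700.

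Plant seeds store oil as triacylglycerol in oil bodies, droplets that bud from the endoplasmic reticulum and are bounded by a single layer of phospholipid. Oleosins coat this layer through a long hydrophobic hairpin, and they keep the droplets small and stop them from fusing when the seed dries. Caleosins are calcium-binding coat proteins with peroxygenase activity, steroleosins are coat proteins with a sterol dehydrogenase domain, and OBAP1 is an oil body associated protein. In Arabidopsis these genes are switched on during seed maturation, under B3-domain factors such as ABI3, FUS3 and LEC2 and abscisic acid responsive bZIP factors.

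The 12 bulk RNA-seq libraries fell into 4 groups of 3, lhp1-6 seed, Col-0 seed, lhp1-6 fruit and Col-0 fruit. LHP1 (LIKE HETEROCHROMATIN PROTEIN 1) is a chromodomain protein that binds the Polycomb mark on histone H3. Mutant and wild type were raised alike, at 22 °C before bolting and from bolting onward in days of 16 °C and nights of 14 °C. Siliques were opened by hand at the bent-cotyledon stage, at 14 to 15 DAP, with day 0 set by the first petals showing, and seeds were parted from the remaining fruit, 3 to 5 siliques to a replicate. The fruit libraries are therefore fruit tissue from which seeds were picked out, and the labels name no other allele or treatment. Whether different pools trace to different plants is not stated, so the tests measure the spread between these pools, which may be partly technical.

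LHP1 itself lay between 0.310 and 0.382 TPM in lhp1-6 seed, against 20.8 to 23.7 TPM in Col-0 seed, and between 0.699 and 0.858 TPM in lhp1-6 fruit, against 15.3 to 17.97 TPM in Col-0 fruit. TPM are length-corrected shares of a fixed total. A minimum number of reads is stated, the same for every library, but the depth that each library reached is unknown. The listed genes summed to between 977750.7 and 986705.9 TPM per library. The 4 fruit wall markers summed to 581.5 to 623 TPM in lhp1-6 fruit and 459 to 705.5 TPM in Col-0 fruit, and to 31.1 to 36.0 TPM in lhp1-6 seed and 38.5 to 39.8 TPM in Col-0 seed. Among them FUL had a lower mean in lhp1-6 fruit than in Col-0 fruit, at 158 and 245 TPM, and the others had higher means. Most of the seed sums was SHP1, at 24.9 TPM in lhp1-6 seed and 32.5 TPM in Col-0 seed. Col-0 fruit replicate 1 stood apart with seed transcripts. By a seed share set as the 1st percentile of the fruit to seed ratio over genes abundant in seed, without the oil body, storage protein and late embryogenesis genes, that share was 23.3% in this library. The other Col-0 fruit libraries had 3.65% and 5.65%, and the lhp1-6 fruit libraries had 8.31%, 11.3% and 9.13%. Among the seeds, lhp1-6 replicate 2 had storage protein transcripts at 3.25% of its listed TPM, below 8.31% and 9.90% in lhp1-6 replicates 1 and 3 and above the 0.366% to 0.874% of the Col-0 seeds. Values without Col-0 fruit replicate 1 and without lhp1-6 seed replicate 2 stand beside the results they bear on.

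The sequence just upstream of the genes is shown because the factors that drive seed maturation genes are known to read the RY element, whose core is CATGCA, and the abscisic acid response element, whose core is ACGTG. In the 250 bases before the annotated start in TAIR10.1, RefSeq's copy of the Arabidopsis genome, a CATGCA on either strand was present in all 10 genes. This makes 9 distinct sequences, since the HSD1 copies had the same 250 bases. Of the 27443 protein-coding genes of the annotation, 8.43% held CATGCA in the same window. The doubled form CATGCATG was found in OLEO4 alone among the 10 and in 0.776% of all genes. ACGTG on either strand was found in 7 of the 10, against 22.9% of all genes, and its palindrome CACGTG, which contains it, was found in OLEO1 and OLEO3, against 6.49% of all genes. A match is a description of letters and not of a bound site. The copy of CATGCA nearest the gene start is set in capitals in these 30-base windows, read on the strand of the gene, where TGCATG is the same core on the other strand.
OLEO1 (chr4:12900338-12900367, + strand): gtggcctacaatTGCATGatgtctccattg
OLEO2 (chr5:16174875-16174904, - strand): aaacttggaaatCATGCAaagccacacctc
OLEO3 (chr5:20819997-20820026, + strand): acatgcaacggcTGCATGaagacacttttg
OLEO4 (chr3:10243084-10243113, + strand): ttttgtttcacaTGCATGctgtccaatctg
AT3G01570 (chr3:222920-222949, - strand): aaacttgttactCATGCAagcttctcaggt
CLO1 (chr4:13475379-13475408, - strand): ttcgtcggcgcgTGCATGtccgccacgcac
CLO2 (chr5:22405850-22405879, + strand): cattgtcgtgtgTGCATGtccgccacggag
OBAP1 (chr1:1629387-1629416, + strand): tgtgtcatagtcCATGCAaatgcccacttc
HSD1 (chr5:20592023-20592052, - strand): tcatcacccatgTGCATGgttattagagcg

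The windows of AT3G01570, CLO1 and OBAP1 also overlap a neighbouring annotated gene, and the others lie outside annotated genes. The nearest copy began between 25 bases (CLO1) and 148 bases (OLEO4) before the gene start. CLO1 and CLO2 shared a run of 16 identical bases across it, beginning 26 bases before the CLO1 start and 35 bases before the CLO2 start. Among pairs of distinct upstream windows this was the longest shared run, followed by 12 bases between OLEO1 and OLEO3. The whole windows are given for OLEO1 (chr4:12900180-12900429, + strand), with 3 copies of CATGCA, for OLEO3 (chr5:20819818-20820067, + strand), with 2 copies, and for HSD1 AT5G50600 (chr5:20591938-20592187, - strand), with 1 copy. They are shown because OLEO1 was the most abundant of these transcripts, OLEO3 differed least between genotypes and HSD1 differed most. Capitals mark CATGCA and ACGTG on either strand, with the whole CACGTG where it occurs.
OLEO1: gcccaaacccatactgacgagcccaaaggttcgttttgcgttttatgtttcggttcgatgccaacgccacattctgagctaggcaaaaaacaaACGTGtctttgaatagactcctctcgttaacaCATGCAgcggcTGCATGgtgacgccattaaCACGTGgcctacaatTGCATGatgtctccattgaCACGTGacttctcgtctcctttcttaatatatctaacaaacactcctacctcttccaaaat
OLEO3: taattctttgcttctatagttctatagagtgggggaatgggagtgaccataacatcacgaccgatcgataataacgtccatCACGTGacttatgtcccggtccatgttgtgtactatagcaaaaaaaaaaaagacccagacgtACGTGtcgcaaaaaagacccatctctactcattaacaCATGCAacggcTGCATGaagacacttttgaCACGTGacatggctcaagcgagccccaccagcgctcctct
HSD1: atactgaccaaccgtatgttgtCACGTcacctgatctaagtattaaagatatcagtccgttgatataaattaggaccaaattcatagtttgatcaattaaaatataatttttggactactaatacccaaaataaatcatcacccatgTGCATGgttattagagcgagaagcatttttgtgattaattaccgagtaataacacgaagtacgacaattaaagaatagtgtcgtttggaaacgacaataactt

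OLEO1 and OLEO3 each carried a CATGCA followed, after a gap of 5 bases, by TGCATG, and then after 13 more bases by CACGTG. The pair began 125 bases before the start of OLEO1 and 70 bases before the start of OLEO3. Over the 43 bases from just before the pair to the end of CACGTG, 35 were identical. This spaced pair was noticed in the sequences and then counted, and 3 of the 27443 promoters held it, OLEO1 and OLEO3 among them. The coding sequences of the oleosins are 48.8% to 65.9% identical in pairs, with OLEO1 and OLEO3 at 61.8%.

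The coat genes were most abundant in seed. In lhp1-6 seed the 10 genes summed to 26360, 16969 and 26476 TPM, or 2.67%, 1.73% and 2.68% of the listed TPM, against 14304, 12712 and 9890.0 TPM, or 1.45%, 1.29% and 1.01%, in Col-0 seed. The 3 lhp1-6 seed libraries thus all lay above the 3 Col-0 seed libraries. The 5 oleosins made up 94.3% ± 2.0 of that sum in lhp1-6 seed and 98.4% ± 0.44 in Col-0 seed (SD, n = 3 each).

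In lhp1-6 seed the order of mean levels was OLEO1 (7672 TPM), AT3G01570 (5439.5 TPM), OLEO3 (3838 TPM), OLEO2 (3691 TPM), OLEO4 (1229 TPM), CLO1 (626 TPM), AT5G50600 (298 TPM), AT5G50700 (294 TPM), CLO2 (152 TPM) and OBAP1 (29.3 TPM). Neighbours in this order overlapped between libraries except OLEO2 and OLEO4, OLEO4 and CLO1, and CLO2 and OBAP1. In Col-0 seed the order was OLEO1 (3414 TPM), OLEO3 (3296 TPM), AT3G01570 (2791 TPM), OLEO2 (1958 TPM), OLEO4 (641 TPM), CLO1 (162 TPM), CLO2 (21.2 TPM), AT5G50600 (7.98 TPM), AT5G50700 (7.89 TPM) and OBAP1 (2.85 TPM). There the first 4 oleosins overlapped from each to the next, as did the HSD1 copies, and the other neighbours did not. HSD1 therefore stood above CLO2 in lhp1-6 seed and below it in Col-0 seed. The fruit libraries of each genotype had the order of their seed libraries by mean. In lhp1-6 fruit, neighbours other than the HSD1 copies did not overlap, and in Col-0 fruit all neighbours overlapped.

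**Figure D1:**
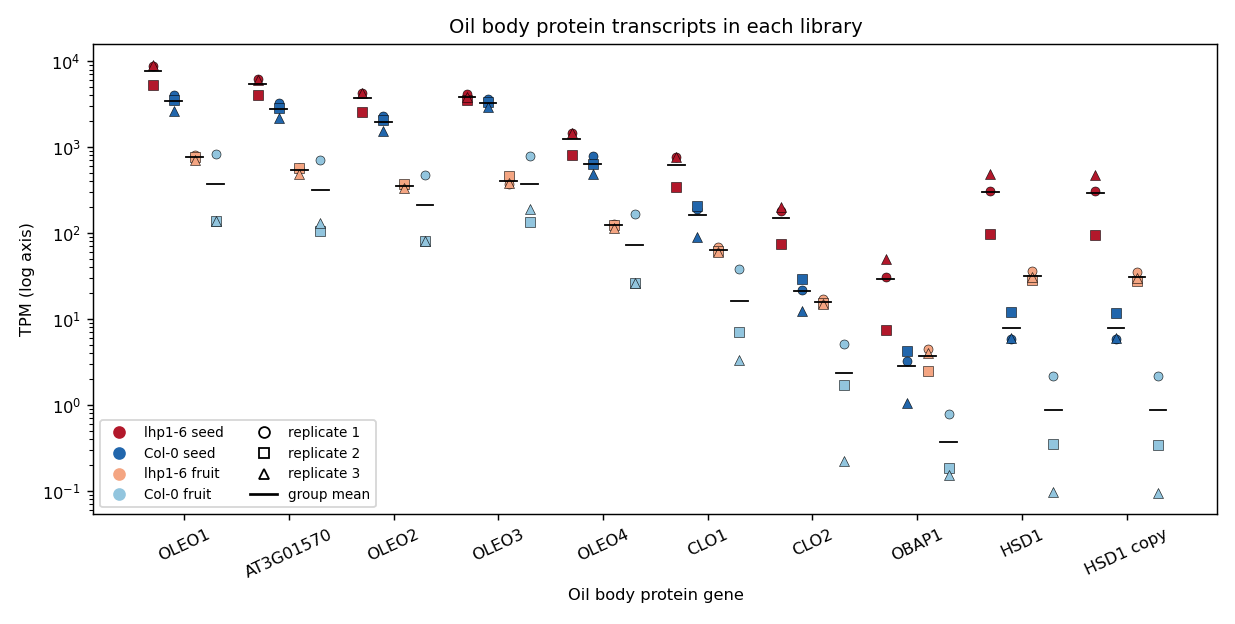
TPM of each oil body protein gene (log axis) in lhp1-6 seed, Col-0 seed, lhp1-6 fruit and Col-0 fruit, with 1 marker shape per replicate number and a bar at each group mean. Within each genotype seed lies above fruit for every gene, while both HSD1 copies in lhp1-6 fruit lie above Col-0 seed. lhp1-6 seed lies above Col-0 seed except for OLEO3, and Col-0 fruit replicate 1 (circle) is the highest Col-0 fruit library throughout.

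Transcripts of the steroleosin HSD1, the caleosin CLO2 and OBAP1 rose in lhp1-6 seed relative to Col-0 seed, HSD1 by the largest ratio of the 10 genes. In limma's test on log2(TPM + 1) over 19946 genes, with an adjusted p under 0.05, 4 of the 10 genes were called and all were higher in lhp1-6. The share of all tested genes called was 12.1%, and 1.85% were called higher. The balance of all genes moved with the scaling, from 369 higher and 2041 lower here to 473 higher and 516 lower with median-of-ratios rescaling, which raised the median of all genes by 0.147 and called the same 4 oil body genes. The median difference was 1.54 on the log2 scale for the 10 genes and -0.15 for all tested genes. The HSD1 copies both enter this median and the count of 4, and with the copies summed 3 genes were called.

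HSD1 (AT5G50600), the steroleosin, had 312, 96.4 and 485 TPM in lhp1-6 seed, against 5.90, 12.01 and 6.04 TPM in Col-0 seed. The groups did not overlap, and the lowest lhp1-6 library was still far above the highest Col-0 library. The ratio of means was 37.3, and the difference was 4.84 on the log2(TPM + 1) scale with an SE of 0.55 (adjusted p = 0.00121, limma). The other copy, AT5G50700, gave 4.84 with an SE of 0.55 (adjusted p = 0.00121, limma). Their coding sequences of 1050 bases are identical in TAIR10.1, and their TPM stood in a ratio of 1.01 in all 12 libraries. The treatment of reads that match both copies is not stated in the sources used here. The copies are therefore read as 1 measurement.

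CLO2, one of the caleosins of the seed, had 182, 73.8 and 199 TPM in lhp1-6 seed, against 22.0, 29.0 and 12.5 TPM in Col-0 seed. All lhp1-6 libraries were higher than all Col-0 libraries. CLO2 rose by 2.73 on the log2 scale with an SE of 0.54 (adjusted p = 0.0117, limma), a ratio of means of 7.17. OBAP1, the scarcest of the set, had 30.7, 7.53 and 49.6 TPM in lhp1-6 seed, against 3.26, 4.23 and 1.07 TPM in Col-0 seed. The groups did not overlap, with lhp1-6 replicate 2 the nearest to the Col-0 libraries. The OBAP1 difference was 2.74 with an SE of 0.56 (adjusted p = 0.0141, limma), a ratio of means of 10.3. CLO2 and OBAP1 lost the call when lhp1-6 seed replicate 1, lhp1-6 seed replicate 3 or Col-0 seed replicate 3 was left out, and each time 2 genes stayed called, the HSD1 copies.

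CLO1, the more abundant caleosin, had 766, 342 and 768 TPM in lhp1-6 seed, against 192, 204 and 91.2 TPM in Col-0 seed. The groups did not overlap and the ratio of means was 3.86. The difference of 1.93 with an SE of 0.67 did not pass the threshold (adjusted p = 0.0835, limma). The coding sequences of CLO1 and CLO2 are 80.9% identical.

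The oleosins, the main coat proteins, did not pass the test over all 12 libraries, and 4 of the 5 were higher in every lhp1-6 seed library than in any Col-0 seed library, as were 6.71% of all tested genes. OLEO1, the major oleosin of the seed, had 8740.3, 5336 and 8939 TPM in lhp1-6 seed, against 4024, 3568 and 2650.4 TPM in Col-0 seed. Its ratio of means was 2.25 and its difference 1.15 with an SE of 0.58 (adjusted p = 0.209, limma). AT3G01570, an oleosin with no symbol in the annotation, had 6239, 4047.5 and 6032 TPM in lhp1-6 seed, against 3304, 2857.5 and 2212 TPM in Col-0 seed. The libraries kept the same order as for OLEO1 in Col-0, and lhp1-6 replicate 2 was again the lowest of the mutant seeds. The AT3G01570 ratio of means was 1.95 (difference 0.96, SE 0.56, adjusted p = 0.282, limma).

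OLEO2 had 4217, 2589 and 4266 TPM in lhp1-6 seed, against 2304, 2045 and 1525 TPM in Col-0 seed. OLEO4 had 1444, 802 and 1441.5 TPM in lhp1-6 seed, against 792, 640 and 491 TPM in Col-0 seed. For OLEO4 the lowest lhp1-6 library was just above the highest Col-0 library. The ratios of means were 1.89 for OLEO2 (adjusted p = 0.307, limma) and 1.92 for OLEO4 (adjusted p = 0.317, limma).

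OLEO3, which encodes the shortest of these oleosins with 426 coding bases, was the exception. It had 4121, 3579 and 3815 TPM in lhp1-6 seed, against 3652.5, 3341 and 2895 TPM in Col-0 seed. The groups overlapped, since lhp1-6 replicate 2 was below Col-0 replicate 1. The ratio of means was 1.16 and the difference 0.22, with a 95% interval of -0.87 to 1.32 (adjusted p = 0.804, limma). OLEO3 made up 15.6%, 21.1% and 14.4% of the summed TPM of the 10 genes in lhp1-6 seed, against 25.5%, 26.3% and 29.3% in Col-0 seed, and these shares did not overlap. OLEO1 made up 33.2%, 31.5% and 33.8% in lhp1-6 seed, against 28.1%, 28.1% and 26.8% in Col-0 seed, and did not overlap either. These are shares of 1 sum, so the share of a gene falls when the others rise more than it does. OLEO2 held 15.8% ± 0.46 in lhp1-6 seed and 15.9% ± 0.39 in Col-0 seed (SD, n = 3 each), a difference smaller than the spread. The steroleosin copies together held 2.38% ± 1.26 in lhp1-6 seed and 0.130% ± 0.054 in Col-0 seed (SD, n = 3 each). The caleosins held 3.23% ± 0.68 in lhp1-6 seed and 1.46% ± 0.39 in Col-0 seed (SD, n = 3 each).

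**Figure D2:**
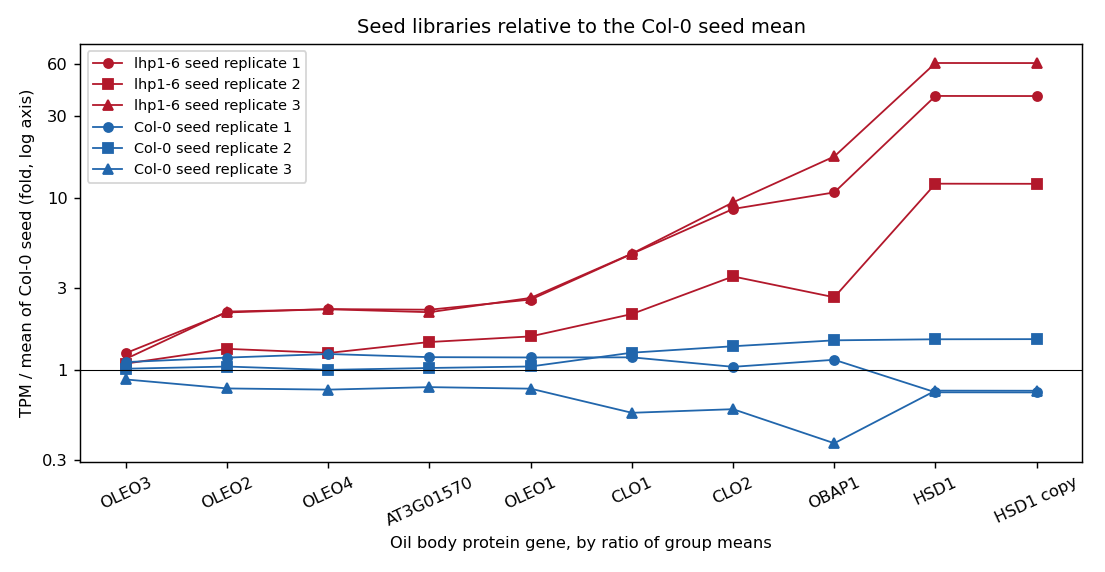
TPM of each gene in each seed library divided by the mean of the 3 Col-0 seed libraries (fold, log axis), with the genes ordered by the ratio of the group means. The lhp1-6 lines climb to 39.1, 12.1 and 60.8 times the Col-0 mean at HSD1 (AT5G50600) and stay between 1.09 and 1.25 times at OLEO3.

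Counted over the set with both HSD1 copies, 9 of the 10 genes were higher in every lhp1-6 seed library than in any Col-0 seed library, against that 6.71%. The spread within groups also ran through the whole set. lhp1-6 seed replicate 2 was the lowest lhp1-6 seed library for all 10 genes, at 3579 TPM for OLEO3 and 96.4 TPM for HSD1, and Col-0 seed replicate 3 was the lowest Col-0 seed library for 8 of the 10, all but the HSD1 copies. The fit shares one estimate of spread over seed and fruit, so the fruit library that stood apart bears on the seed result. Without Col-0 fruit replicate 1 the SE of OLEO1 in seed was 0.22, and 9 of the 10 genes were called higher in lhp1-6 seed, against 2.96% of all genes. Their adjusted p were 0.00645 for OLEO1, 0.0135 for OLEO2, 0.0189 for OLEO4, 0.0104 for AT3G01570 and 0.00744 for CLO1 (limma). OLEO3 remained outside, with an adjusted p of 0.326 (limma). Without lhp1-6 seed replicate 2, limma called the same 4 genes in seed. OBAP1 was then higher by 3.48 with an SE of 0.40 (adjusted p = 0.00187, limma), and HSD1 by 5.51 with an SE of 0.44 (adjusted p = 0.000309, limma). The ratios of means without that library were 14.1 for OBAP1, 49.96 for HSD1, 9.01 for CLO2, 4.73 for CLO1, 2.59 for OLEO1 and 1.20 for OLEO3. With the 6 seed libraries alone, 5 genes were called, against 3.66% of all genes called higher, with CLO1 at an adjusted p of 0.0285 and OLEO1 at 0.05, on the threshold (limma).

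Storage protein transcripts moved with these values. The 9 cruciferin and albumin genes summed to 81992, 31914 and 97700 TPM in lhp1-6 seed, against 6900.2, 8591 and 3597 TPM in Col-0 seed, and replicate 2 of lhp1-6 and replicate 3 of Col-0 were the lowest for them as well. Of the other tissues a seed pool holds, the 6 seed coat markers summed to 1163 to 1249 TPM in lhp1-6 seed, against 1934 to 2161 TPM in Col-0 seed, with 0 higher and 3 lower by the test. The 4 endosperm markers summed to 1499.8 to 1971 TPM in lhp1-6 seed, against 1152 to 1777 TPM in Col-0 seed, and no gene of that list was at 0. That sum was carried by EPR1, at 1426 TPM in lhp1-6 seed and 1041 TPM in Col-0 seed, while the other 3 endosperm markers had lower means in lhp1-6 seed. The list had a median difference of -0.43 with 1 of 4 positive, and limma called none of its genes in seed, with 1 at an unadjusted p under 0.05. The part of seed makeup or of embryo stage in the oil body gene differences was not tested, and in bulk tissue more cells expressing a gene cannot be told apart from more RNA per cell.

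**Figure D3:**
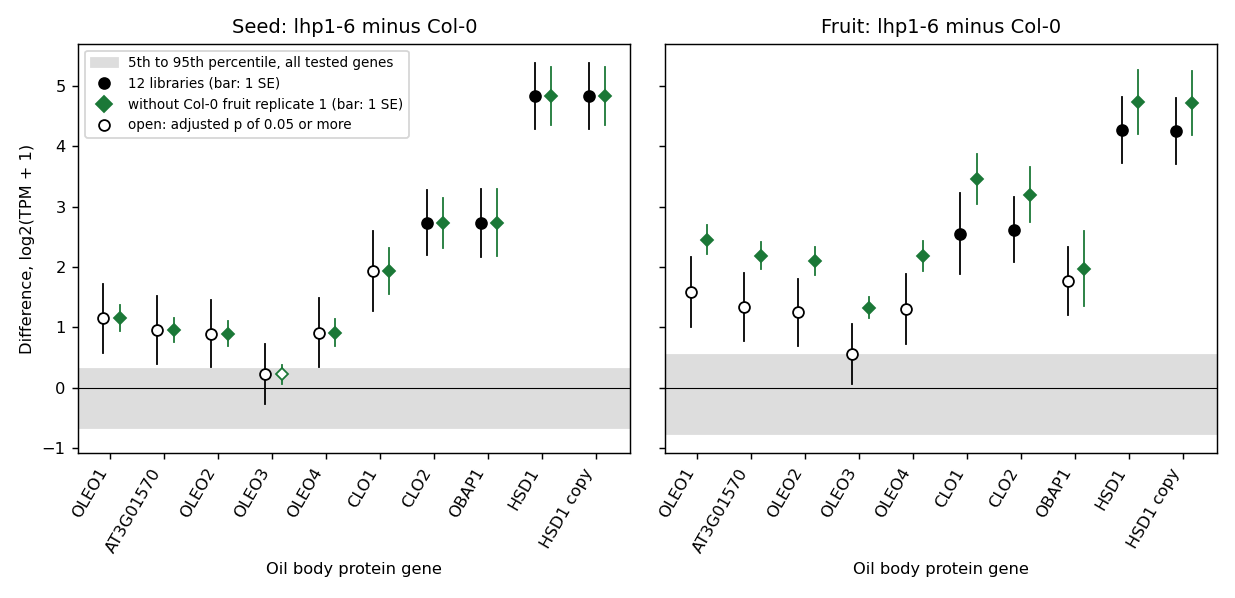
Difference between lhp1-6 and Col-0 on the log2(TPM + 1) scale in seed (left) and fruit (right), with bars of 1 SE for all 12 libraries (circles) and without Col-0 fruit replicate 1 (diamonds). Filled symbols had an adjusted p under 0.05 and the grey band spans the 5th to 95th percentile of all tested genes. HSD1 lies at 4.84 in seed and 4.27 in fruit, and without the 1 fruit library the seed SE of OLEO1 is 0.22 in place of 0.58, that of OBAP1 is 0.56 both ways, and the fruit values lie higher.

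In the fruit left after dissection, the same genes were present at lower levels and HSD1, CLO2 and CLO1 were higher in lhp1-6 fruit. By the test, 4 of the 10 genes were called and all were higher in lhp1-6 fruit, with HSD1 counted in both copies. Of all tested genes 14.9% were called in fruit and 5.75% were called higher. The median difference was 1.68 for the 10 genes and -0.03 for all tested genes.

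HSD1 (AT5G50600) had 35.9, 28.4 and 30.5 TPM in lhp1-6 fruit, against 2.20, 0.351 and 0.0964 TPM in Col-0 fruit. The groups did not overlap, and the highest Col-0 value was that of replicate 1. The difference was 4.27 with an SE of 0.55 (adjusted p = 0.000787, limma), and AT5G50700 gave 4.26. CLO2 had 17.1, 15.4 and 14.9 TPM in lhp1-6 fruit, against 5.10, 1.71 and 0.226 TPM in Col-0 fruit. The groups did not overlap, and CLO2 was higher by 2.62 with an SE of 0.54 (adjusted p = 0.00948, limma).

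CLO1 had 69.8, 61.9 and 60.6 TPM in lhp1-6 fruit, against 37.8, 7.10 and 3.31 TPM in Col-0 fruit. The groups did not overlap, and the difference was 2.56 with an SE of 0.67 (adjusted p = 0.0277, limma). That call was lost when any of the 3 lhp1-6 fruit libraries or Col-0 fruit replicate 2 or 3 was left out, with adjusted p between 0.0675 and 0.0881 (limma). With the 6 fruit libraries alone CLO1 was also lost (adjusted p = 0.119, limma). OBAP1 had 4.50, 2.49 and 4.05 TPM in lhp1-6 fruit, against 0.781, 0.185 and 0.152 TPM in Col-0 fruit, without overlap. Its difference of 1.77 did not pass (adjusted p = 0.0593, limma), and it did with the 6 fruit libraries alone (adjusted p = 0.0203, limma), so that 4 genes were called both ways. OBAP1 in fruit also passed with a pseudocount of 0.1, with quantile normalization, and without Col-0 fruit replicate 1 or lhp1-6 seed replicate 2 or 3. Its Col-0 fruit values all lie below the pseudocount of 1 used in the main test.

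The oleosins in fruit turned on 1 library. OLEO1 had 810.0, 774 and 711 TPM in lhp1-6 fruit, against 843, 139 and 138 TPM in Col-0 fruit. Col-0 replicate 1 was above all lhp1-6 libraries, and the other Col-0 libraries were far below them. OLEO3 had 369.5, 467 and 378 TPM in lhp1-6 fruit, against 785, 135 and 190.3 TPM in Col-0 fruit, in the same arrangement. AT3G01570 had 571, 566 and 491 TPM in lhp1-6 fruit, against 702, 105 and 133 TPM in Col-0 fruit. OLEO2 had 357, 369 and 336 TPM in lhp1-6 fruit, against 481, 81.8 and 81.7 TPM in Col-0 fruit. OLEO4 repeated the arrangement at a lower level, with 128, 125 and 115.5 TPM in lhp1-6 fruit, against 167, 26.1 and 26.4 TPM in Col-0 fruit. The 5 oleosins had differences of 0.56 (OLEO3) to 1.59 (OLEO1), with adjusted p between 0.0909 and 0.495 (limma). Over the set with both HSD1 copies, 5 of the 10 genes did not overlap between genotypes in fruit and were higher in lhp1-6, against 11.3% of all tested genes.

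Without Col-0 fruit replicate 1 all 10 genes were called higher in lhp1-6 fruit, against 14.2% of all genes. The ratio of means for OLEO1 was then 5.52, where it was 2.05 with all 3 Col-0 fruit libraries. For OLEO3 it was 2.49 without and 1.09 with that library, for CLO1 12.3 without and 3.99 with it, and for CLO2 16.4 without and 6.74 with it. For OBAP1 it was 21.8 without and 9.88 with it, and for HSD1 141 without and 35.8 with it. The Col-0 values left were 0.185 and 0.152 TPM for OBAP1 and 0.351 and 0.0964 TPM for HSD1. All lie under 1 TPM, so the ratios of these genes without that library are imprecise. The difference for OLEO3 without that library was 1.33 on the log2 scale with an SE of 0.18 (adjusted p = 0.000561, limma). Seed shares in the libraries kept were 3.65% and 5.65% in Col-0 fruit, against 8.31%, 11.3% and 9.13% in lhp1-6 fruit. The part of carried-over seed in these calls and ratios was not tested.

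Seed exceeded fruit for all 10 genes in each genotype. Every seed library was above every fruit library of the same genotype, which held for 40.8% of all tested genes in lhp1-6 and 47% in Col-0, and all 10 were called. In lhp1-6, 80.4% of all tested genes were called between the tissues and 39.3% were higher in seed. In Col-0, 83% were called and 45.3% were higher in seed. The differences in lhp1-6 ran from 2.38 (OBAP1) to 3.34 (OLEO2), with a median of 3.21 against -0.02 for all genes. In Col-0 they ran from 1.41 (OBAP1, adjusted p = 0.0366, limma) to 3.80 (CLO1), with a median of 3.62 against 0.12 for all genes. OBAP1 in Col-0 lost the call without Col-0 fruit replicate 2 or 3 or Col-0 seed replicate 1 or 2, with adjusted p between 0.0859 and 0.122 (limma). On the log2(TPM + 1) scale the smaller values of scarce genes are understated.

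Fruit levels were also set against seed levels. As a percentage of the mean seed TPM of the same genotype, the 10 genes in lhp1-6 fruit lay at 9.63% to 15.4% in replicate 1, 8.52% to 12.2% in replicate 2 and 9.03% to 13.8% in replicate 3. In Col-0 fruit they lay at 23.3% to 27.6% in replicate 1, 3.77% to 8.06% in replicate 2 and 1.07% to 5.78% in replicate 3. The medians were 10.9%, 10.04% and 9.75% in lhp1-6 fruit and 24.9%, 4.28% and 4.08% in Col-0 fruit. The seed shares estimated from other genes in these libraries were 8.31%, 11.3% and 9.13% in lhp1-6 fruit and 23.3%, 3.65% and 5.65% in Col-0 fruit, so Col-0 replicate 1 was the highest by both measures.

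When the seed share was taken off each fruit library, using the mean seed profile of the genotype, 0, 9 and 2 of the 10 genes were at 0 in lhp1-6 fruit replicates 1, 2 and 3, and 1, 0 and 9 of them in Col-0 fruit replicates 1, 2 and 3. After that step 1 of the 10 was called between the genotypes in fruit, against 11.5% of all genes called higher. It was OLEO3, higher in lhp1-6 by 1.74 with an SE of 0.40 (adjusted p = 0.0111, limma). With the same-numbered seed library in place of the mean, limma called none, and its adjusted p for OLEO3 was 0.122. The genes at 0 then numbered 0, 0 and 9 in lhp1-6 fruit replicates 1, 2 and 3. In Col-0 fruit replicates 1, 2 and 3 they numbered 6, 3 and 8, so these counts depended on the seed profile used. HSD1 differed by 1.77 after the step with the mean seed profile (adjusted p = 0.139, limma). The fruit values are thus levels of libraries that hold seed transcripts, and the part of carried-over seed in the fruit differences cannot be told apart from expression in the fruit.

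**Figure D4:**
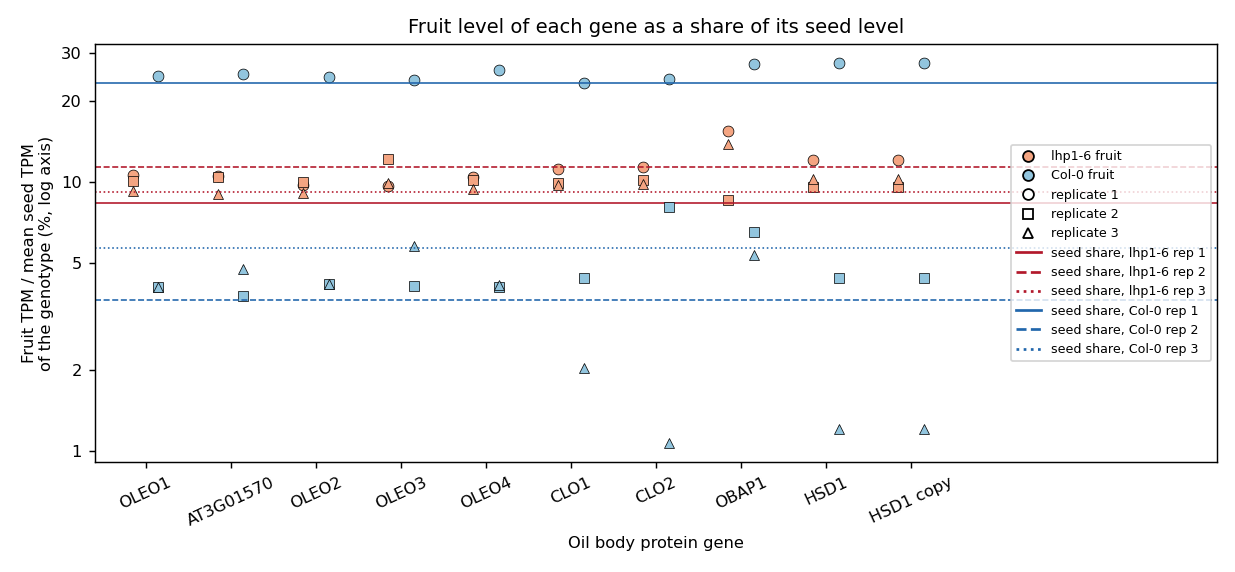
TPM of each gene in each fruit library as a percentage of the mean seed TPM of the same genotype (log axis), for lhp1-6 and Col-0 fruit, with lines at the seed share of each library estimated from other genes. Col-0 fruit replicate 1 sits between 23.3% and 27.6%, the lhp1-6 libraries between 8.52% and 15.4%, and the other Col-0 libraries between 1.07% and 8.06%.

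Whether the effect of lhp1-6 differed between seed and fruit was tested as the difference of the 2 effects. None of the 10 genes was called by limma, none had an unadjusted p under 0.05, and 5.51% of all tested genes were called. The values ran from -0.62 (CLO1) to 0.96 (OBAP1), with adjusted p between 0.505 and 0.948 (limma). The positive value of OBAP1 depended on the pseudocount, and with 0.1 in place of 1 it was -0.062. Its ratios of means were 10.3 in seed and 9.88 in fruit. The HSD1 copies also turned negative with a pseudocount of 0.1, at -0.74 each. Without Col-0 fruit replicate 1 the 5 oleosins were called, with smaller lhp1-6 effects in seed than in fruit at -1.30 to -1.10 on the log2 scale, against 14.8% of all genes called lower. OLEO3 had -1.10 with an SE of 0.24 (adjusted p = 0.0130, limma). Leaving out lhp1-6 seed replicate 2 as well, a choice made after seeing the data, gave the same 5 calls, against 20.4% of all genes called lower. The Col-0 fruit libraries kept had seed shares of 3.65% and 5.65%, against 8.31%, 11.3% and 9.13% in lhp1-6 fruit. With the seed share taken off by the mean seed profile, over all 12 libraries, none of the 10 genes was called. The difference was then positive for OLEO1 (0.70), OLEO2 (1.81), OLEO4 (0.725) and AT3G01570 (1.35), and OLEO3 kept its sign. The part of carried-over seed in these differences was not tested.

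Relatives of the 10 genes were followed in the same way. The 3 other oleosins listed apart from those of the tapetum, AT1G48990, AT2G25890 and AT3G18570, had means of 142, 43.0 and 96.7 TPM in lhp1-6 seed, against 102.5, 26.0 and 67.1 TPM in Col-0 seed. Limma called none of the 3 in either tissue, and 0 of them had an unadjusted p under 0.05 in seed or in fruit. Of the oleosins of the tapetum, the pollen-feeding layer of the anther, 4 of 6 were tested, and GRP17 alone was called in seed, at 1.80 ± 0.41 TPM in lhp1-6 and 0.383 ± 0.043 TPM in Col-0 (SD, n = 3 each, adjusted p = 0.00223, limma). GRP17 reached 1 TPM in the lhp1-6 seed libraries alone and so was tested only through the group in which it was high. GRP14, the most abundant tapetal oleosin in seed, averaged 9.87 ± 1.40 TPM in lhp1-6 seed and 16.4 ± 3.0 TPM in Col-0 seed and was not called (SD, n = 3 each, adjusted p = 0.0853, limma). Of 6 other caleosins 3 were tested, and limma called none between the genotypes in seed or fruit, with 1 at an unadjusted p under 0.05 in seed and 0 in fruit. RD20, the drought-induced caleosin CLO3, averaged 21.4 TPM in lhp1-6 seed and 29.9 TPM in Col-0 seed, and 775.5 TPM in lhp1-6 fruit and 606 TPM in Col-0 fruit. All 3 tested caleosins of this list were lower in seed than in fruit in each genotype, the reverse of CLO1 and CLO2.

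Among 6 other steroleosins HSD5 was called. It averaged 70.6 ± 26.6 TPM in lhp1-6 seed and 14.8 ± 2.2 TPM in Col-0 seed (SD, n = 3 each), a difference of 2.11 (adjusted p = 0.00435, limma), and its fruit difference was 1.68 (adjusted p = 0.00695, limma). HSD6, the most abundant of the list in seed, averaged 250 TPM in lhp1-6 seed and 187 TPM in Col-0 seed and was not called. Of the OBAP relatives, AT1G29680 averaged 66.3 ± 29.3 TPM in lhp1-6 seed and 10.4 ± 4.9 TPM in Col-0 seed (SD, n = 3 each), a difference of 2.55 (adjusted p = 0.00987, limma). AT5G45690 was also called in seed, by 1.70 (adjusted p = 0.0463, limma), at 1.51, 0.801 and 7.497 TPM in lhp1-6 seed, against listed values of 0, 0 and 0.117 TPM in Col-0 seed. Its level in lhp1-6 seed thus rests largely on replicate 3.

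Of 12 genes of lipid droplet formation and turnover, 1 was higher and 2 lower in lhp1-6 seed. The higher one was AT5G16460, which encodes SEIPIN1, a protein of droplet budding, at 2.78 ± 1.67 TPM in lhp1-6 and 0.208 ± 0.181 TPM in Col-0 (SD, n = 3 each, adjusted p = 0.00782, limma). It reached 1 TPM in the lhp1-6 seed libraries alone and so was tested only through the group in which it was high. The lower ones were AT1G67360, for a droplet coat protein of the small rubber particle family, with a difference of -0.76 (adjusted p = 0.0187, limma), and AT5G16550, for a partner of that family, with a difference of -0.38 (adjusted p = 0.0147, limma). All tested genes had a median of -0.15 in seed, and these lower calls were not followed under the rescalings. In fruit AT1G67360 alone was called, at -0.72 (adjusted p = 0.0167, limma). AT1G65090, the most abundant of the list in seed, averaged 731 TPM in lhp1-6 seed and 490.2 TPM in Col-0 seed and was not called.

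Of 9 genes of triacylglycerol synthesis, 0 were higher and 1 was lower in lhp1-6 seed, PDAT, an acyltransferase gene, with a difference of -0.29 (adjusted p = 0.0359, limma). The median of all tested genes in seed was -0.15, and genes called lower fell from 2041 to 516 with median-of-ratios rescaling. PDAT was not followed under the rescalings. FAD2, the oleate desaturase gene and the most abundant of the list, averaged 996 TPM in lhp1-6 seed and 932 TPM in Col-0 seed. TAG1, which encodes the acyltransferase DGAT1 of the last step of oil synthesis, averaged 121 TPM in lhp1-6 seed and 111 TPM in Col-0 seed and did not pass. In fruit, DGAT3 and FAD2 were higher in lhp1-6, by 0.74 (adjusted p = 0.0124, limma) and 0.62 (adjusted p = 0.0129, limma), and PDAT was lower, at -0.46 (adjusted p = 0.00325, limma).

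None of 19 seed maturation regulators was called between the genotypes in seed by limma, with 5 at an unadjusted p under 0.05. NF-YB6, the most abundant of them in seed and a relative of LEC1, averaged 721 ± 30.5 TPM in lhp1-6 seed and 687 ± 67.9 TPM in Col-0 seed (SD, n = 3 each). The differences were positive for 6 of the 19, with a median of -0.18. DPBF2, a bZIP factor gene, had the highest, with 121 ± 29.4 TPM in lhp1-6 seed and 48.6 ± 5.9 TPM in Col-0 seed (SD, n = 3 each), ranges that did not overlap, and a difference of 1.27 (adjusted p = 0.126, limma). LEC2, a B3-domain factor gene, had the lowest, with 7.05 ± 2.36 TPM in lhp1-6 seed and 13.3 ± 1.4 TPM in Col-0 seed (SD, n = 3 each), also without overlap, and a difference of -0.86 (adjusted p = 0.118, limma). In fruit 2 of the 19 were lower in lhp1-6, the bZIP factor gene ABI5 with a difference of -0.70 (adjusted p = 0.0244, limma) and HSL1 with one of -0.44 (adjusted p = 0.0397, limma). Of 9 storage protein genes, 7 were higher in lhp1-6 seed, with a median difference of 4.71. CRU3, a cruciferin gene, averaged 5025 ± 3204 TPM in lhp1-6 seed and 19.5 ± 25.5 TPM in Col-0 seed (SD, n = 3 each, adjusted p = 0.000884, limma). SESA1 and SESA5, albumin genes, differed by 6.13 (adjusted p = 0.00149, limma) and 5.06 (adjusted p = 0.00190, limma) in seed. SESA3, the most abundant storage transcript, averaged 26717 ± 11699 TPM in lhp1-6 seed and 4144.5 ± 1540 TPM in Col-0 seed and did not pass (SD, n = 3 each, adjusted p = 0.0653, limma).

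**Figure D5:**
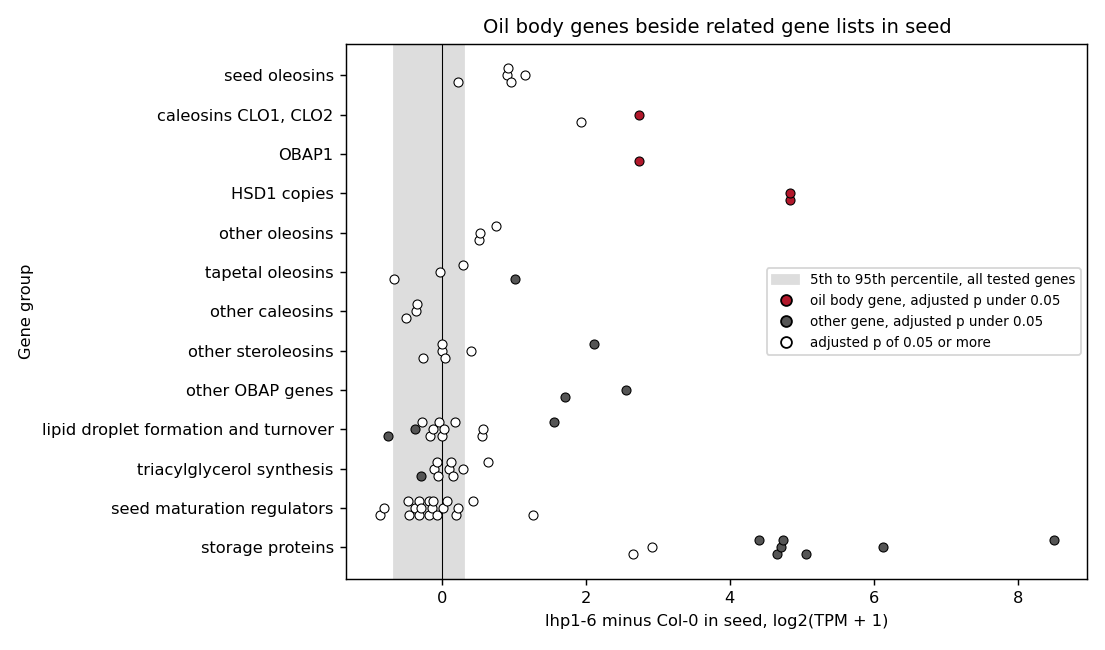
Difference between lhp1-6 and Col-0 in seed on the log2(TPM + 1) scale for the oil body genes by class and for related gene lists, 1 point per tested gene, filled where the adjusted p was under 0.05, with a grey band over the 5th to 95th percentile of all tested genes. The oil body classes run from OLEO3 at 0.22 to HSD1 at 4.84, and the storage proteins had a median of 4.71.

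The 5 genes whose log2(TPM + 1) most resembled the mean of the 10 over the 12 libraries were AT2G18540 (Pearson r 0.998), AT2G28490 (0.997), TI2, a trypsin inhibitor gene (0.996), BETA-TIP, a seed vacuolar aquaporin gene (0.995), and PER1, a seed peroxiredoxin gene (0.995). PER1 averaged 436.5 TPM in lhp1-6 seed and 96.6 TPM in Col-0 seed, and 47.3 TPM in lhp1-6 fruit and 9.82 TPM in Col-0 fruit. Over the 6 fruit libraries alone the 5 most alike were UMAMIT36 (0.999), AT2G28490 (0.998), PER1 (0.998), AT2G18540 (0.997) and CBSX4 (0.996). UMAMIT36, an amino acid transporter gene, differed from the others in being near 0 in seed, at 0.0217 TPM in lhp1-6 and 0.0222 TPM in Col-0. These correlations describe libraries that share tissue and genotype and carry no test.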

How the data were processed

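Bulk RNA-seq of dissected Arabidopsis siliques gave 12 libraries, grouped by the labels' tissue and genotype. The authors deposited TPM for each gene, in 1 table per library. Per the submitters' processing notes cutadapt 1.9.1, STAR 2.5 and featureCounts were used with TAIR10, and the handling of strand and of multiply mapped reads is not stated there. TPM keep no depth, so no counting intervals were made, and a rise of abundant genes lowers all other shares.

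Log2(TPM + 1) was tested with limma 3.58.1 (R 4.3.3). The 19946 genes tested reached 1 TPM in 3 or more libraries, with 1 mean per group over all 12 libraries and a variance trend. Adjusted p are Benjamini-Hochberg values over all tested genes, two-sided, with a threshold of 0.05. In simulated data for the seed comparison over 19946 genes, 77 of 100 changes of 1 log2 unit and 95 of 100 of 2 log2 units were recovered, with 11 false calls. The simulated noise was independent between genes and held no shift shared by a whole library, so these rates are not those of the real libraries. Alternatives covered pseudocounts, filters, scalings, variance models, a replicate block, removal of the seed share and omission of single libraries. Same-numbered seed and fruit libraries deviated together within a genotype (correlations across genes of 0.311, 0.202 and 0.128 in lhp1-6 and 0.192, 0.113 and 0.185 in Col-0), and the numbers were taken to pair the tissues. Between genotypes the same-numbered libraries had correlations of 0.421, -0.0293 and 0.125 in seed and -0.246, -0.397 and 0.0604 in fruit. The numbers were not taken to pair the genotypes. No pair of libraries had a gene with exactly equal values above 0.

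Sequences and gene positions came from RefSeq's TAIR10.1, in which 26715 of 26925 identifiers and all 10 genes matched, read with Python 3.11.15. The deposited files give locus identifiers without coordinates. All 10 genes are named in every library, other lists in the comparisons described by up to 3 called genes of smallest adjusted p and the most abundant in seed. DPBF2, LEC2, TAG1 and the 3 other oleosins were named after their values were seen, and tissue markers are given mainly as sums. Genes of similar pattern are the 5 of highest Pearson correlation with the mean of the 10. The genes and lists were chosen with earlier results of these data known.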

Additional observations from a re-analysis of the deposited data

How the results depend on the processing

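All 10 genes, or 9 with the HSD1 copies summed, were called higher in seed than in fruit in lhp1-6 under each alternative. In Col-0 OBAP1 alone lost the call, with a pseudocount of 5, with median-of-ratios rescaling or without Col-0 fruit replicate 2 or 3 or Col-0 seed replicate 1 or 2. For lhp1-6 against Col-0 the 2 HSD1 copies stayed called in seed under each alternative. The number of the 10 genes called, 4 in seed and 4 in fruit, became 9 and 9 with array weights and, with Col-0 fruit replicate 1 and lhp1-6 seed replicate 2 both left out, 9 and 10. It became 1 in fruit with the seed share taken off by the mean seed library and 0 with the same-numbered one. Leaving out 1 library at a time gave 2 to 9 genes in seed, 3 to 10 in fruit and 0 to 5 for the difference of the effects, whose main count of 0 became 5 with both libraries left out.

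Over all genes, 2410 were called in seed (369 higher and 2041 lower), against 989 with median-of-ratios rescaling (473 higher and 516 lower), 1069 with quantile normalization (512 higher and 557 lower), 1159 with TPM recomputed without the oil body and storage protein genes (400 higher and 759 lower), 10033 with array weights, 5356 with the seed libraries alone and 5040 with both libraries left out. The rescalings moved the median of all genes in seed by 0.147, 0.152 and 0.1 log2. In fruit 2980 were called, against 875 with the fruit libraries alone, 4810 and 4701 with the seed share taken off by the mean and by the same-numbered library, and 5766 with both libraries left out. In fruit, 1146 were higher and 1834 lower, against 1438 and 1673 with median-of-ratios rescaling and 1665 and 1504 with quantile normalization. For the difference of the effects 1100 were called (343 higher and 757 lower, against 373 and 374 with median-of-ratios rescaling), against 4214 with array weights, 3069 and 2874 with the seed share taken off, and 5152 with both libraries left out. Leaving out 1 library at a time gave 636 to 4162 in seed, 1771 to 5641 in fruit and 426 to 3988 for the difference. The difference has no value from the libraries of 1 comparison alone.

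For lhp1-6 against Col-0 the replicate block pairs libraries only by number between genotypes. With it 3 genes were called in seed (OBAP1 lost, adjusted p = 0.0664, limma) and 3 in fruit (CLO1 lost, adjusted p = 0.0536, limma). Over all genes it called 788 in seed and 1664 in fruit. For the difference of the effects and for seed against fruit, the block paired seed and fruit libraries within a genotype. It then called 497 genes over all for the difference, against 1100 without it. For this pairing of seed and fruit the block changed no call among the 10 genes.

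The 10 genes kept their direction except in these cases, none past the threshold. OLEO3 in seed was -0.32 with quantile normalization. In fruit with the seed share taken off by the mean, OLEO2 was -0.91 and AT3G01570 was -0.39. The difference of the effects was then 0.70 for OLEO1, 1.81 for OLEO2, 0.73 for OLEO4, 1.35 for AT3G01570 and 0.11 for CLO1. With a pseudocount of 0.1 it was -0.66 for CLO2, -0.062 for OBAP1, and -0.74 for each HSD1 copy. For CLO2 it was -0.098 with array weights and -0.016 with both libraries left out. Leaving out 1 library at a time, it ranged from -0.47 to 0.69 for CLO2, -1.20 to 0.070 for OLEO2, -1.27 to 0.047 for OLEO4, -1.23 to 0.13 for AT3G01570, -1.10 to 0.17 for OLEO3 and -1.53 to 0.058 for CLO1. The cause of these changes was not tested. Beyond the stated minimum number of reads, the depth of each library is not known, so what it limits cannot be given.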

Other observations

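Late embryogenesis genes, which encode hydrophilic proteins of the drying seed, were mostly below the expression filter at this stage, with 3 of 9 tested. AT5G44310 averaged 132.5 ± 33.3 TPM in lhp1-6 seed and 28.0 ± 6.5 TPM in Col-0 seed (SD, n = 3 each), a difference of 2.20 (adjusted p = 0.00829, limma). AT3G15670 averaged 17.3 ± 7.9 TPM in lhp1-6 seed and 4.19 ± 1.25 TPM in Col-0 seed (SD, n = 3 each), a difference of 1.75 (adjusted p = 0.0108, limma). ECP63, the third, averaged 28.2 TPM in lhp1-6 seed and 16.9 TPM in Col-0 seed and was not called. Of the 9 genes, 6 did not reach the filter.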
